A study of Mus musculus with 56 samples.

Results

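The 9 genes described here encode the enzymes that carry farnesyl diphosphate through squalene and lanosterol to cholesterol: Fdft1, Sqle, Lss, Cyp51, Msmo1, Nsdhl, Hsd17b7, Sc5d and Dhcr7. They were taken by name from the pathway, out of 45513 genes counted in liver mRNA, and all 9 were among the 14314 genes that passed the filter on low counts. The 56 mice were female APOE*3Leiden.CETP mice, aged 9 to 14 weeks when taken into the study. A run-in on a Western-type diet and the treatment came after that age, so the livers were from older mice. The mice carry human apolipoprotein transgenes and a human CETP gene driven by its own flanking sequence, as a model of human-like lipoprotein metabolism. All mice ate the Western-type diet, with 15% cacao butter and 0.15% cholesterol. They formed 7 groups of 8. Control mice received the vehicle, 5% carboxymethyl cellulose. The kinase inhibitors were imatinib at 150 mg/kg with 2 gavages per day, nilotinib at 10 or 30 mg/kg and ponatinib at 3 or 10 mg/kg, the last 2 drugs with 1 drug gavage per day and a further gavage of vehicle. A separate group drank water with 0.12 to 0.20% L-NAME, an inhibitor of nitric oxide synthase, and received vehicle gavages. Livers of the inhibitor and control groups were taken after 16 weeks of treatment.

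Cholesterol synthesis starts from acetyl-CoA, and its early part ends in farnesyl diphosphate, which also feeds other products. Squalene synthase, encoded by Fdft1, joins farnesyl units to squalene and so commits them to sterols, squalene epoxidase (Sqle) and lanosterol synthase (Lss) close the rings, and the remaining enzymes remove methyl groups and shift or reduce double bonds until cholesterol is reached. In the liver the genes of this branch are targets of SREBP2, a transcription factor that is held in the endoplasmic reticulum when sterols are plentiful and released when they are scarce.

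The libraries held from 5342379 to 17996732 reads assigned to genes, except for that of L-NAME replicate 2 with 97473341, and results of the L-NAME group are given with and without that mouse. Of the uniquely aligned reads, 7.97% ± 0.42 (SD, n = 8) overlapped no annotated gene in the control group, and group means reached 11.0% ± 1.99 with ponatinib 10 mg/kg and 11.0% ± 2.45 with L-NAME. With nilotinib the means were 9.75% ± 0.69 at 10 mg/kg and 10.5% ± 1.38 at 30 mg/kg. All 6 hepatocyte markers examined were present in every group. The labels do not say which mice shared a cage, litter or sequencing batch. For the control and inhibitor groups the paper's supplement gives several mice to a cage, without naming them. Expression is given in CPM, counts scaled to a common library size with TMM normalization factors. A gene was called changed at a Benjamini-Hochberg adjusted p-value below 0.05 over the 14314 genes in edgeR's quasi-likelihood test, fitted on all 56 mice, and adjusted p-values below are from that fit. All 6 comparisons with control share the same 8 control mice. In whole liver, fewer cells of a type and less RNA per cell cannot be told apart.

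In control livers Sc5d, the sterol C5-desaturase, had by far the most reads for its length among the 9 genes, with a mean of 137 CPM per kb of exon. Cyp51, the lanosterol demethylase, followed with 16.1 CPM per kb, Fdft1 with 14.9 and Nsdhl, a dehydrogenase of the C4-demethylation complex, with 12.9. Dhcr7, the 7-dehydrocholesterol reductase that makes cholesterol in a terminal step, was at 11.2, Hsd17b7, the ketoreductase of the C4-demethylation complex, at 10.0 and Msmo1, its methyl oxidase, at 9.99. The lowest levels per kb were those of Sqle at 5.00 and Lss at 4.53. The length used is that of all annotated exons of a gene merged, 10787 bases for Lss and 5546 for Sqle. Without division by length the control mean of Lss, 48.9 CPM, was above those of Nsdhl, 36.9 CPM, and Sqle, 27.7 CPM. Sqle also varied most from mouse to mouse: the 8 control livers ran from 8.49 to 47.9 CPM with a median of 27.4, whereas Dhcr7 ran only from 53.9 to 75.4 CPM. Fdft1 shares exon sequence on the opposite strand with Ctsb, a lysosomal protease gene with 668849 counts in all against 43211 for Fdft1, and is 97.4% identical over 1249 bases to the processed pseudogene Gm6781. Cyp51 overlaps Akap9 and Lss overlaps 4930483K19Rik in the same way. On GRCm38, Fdft1 lies at chr14:63145150-63179578, Sqle at chr15:59315077-59331192, Lss at chr10:76531588-76557138, Cyp51 at chr5:4081145-4104746, Msmo1 at chr8:64718139-64733792, Nsdhl at chrX:72918557-72958514, Hsd17b7 at chr1:169949535-169969241, Sc5d at chr9:42251595-42264256 and Dhcr7 at chr7:143823145-143848410. Reads from the overlaps were left out as ambiguous unless counting used strand, which the sources used here do not state, so the levels of these 3 genes are the less certain ones.

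**Figure D1:**
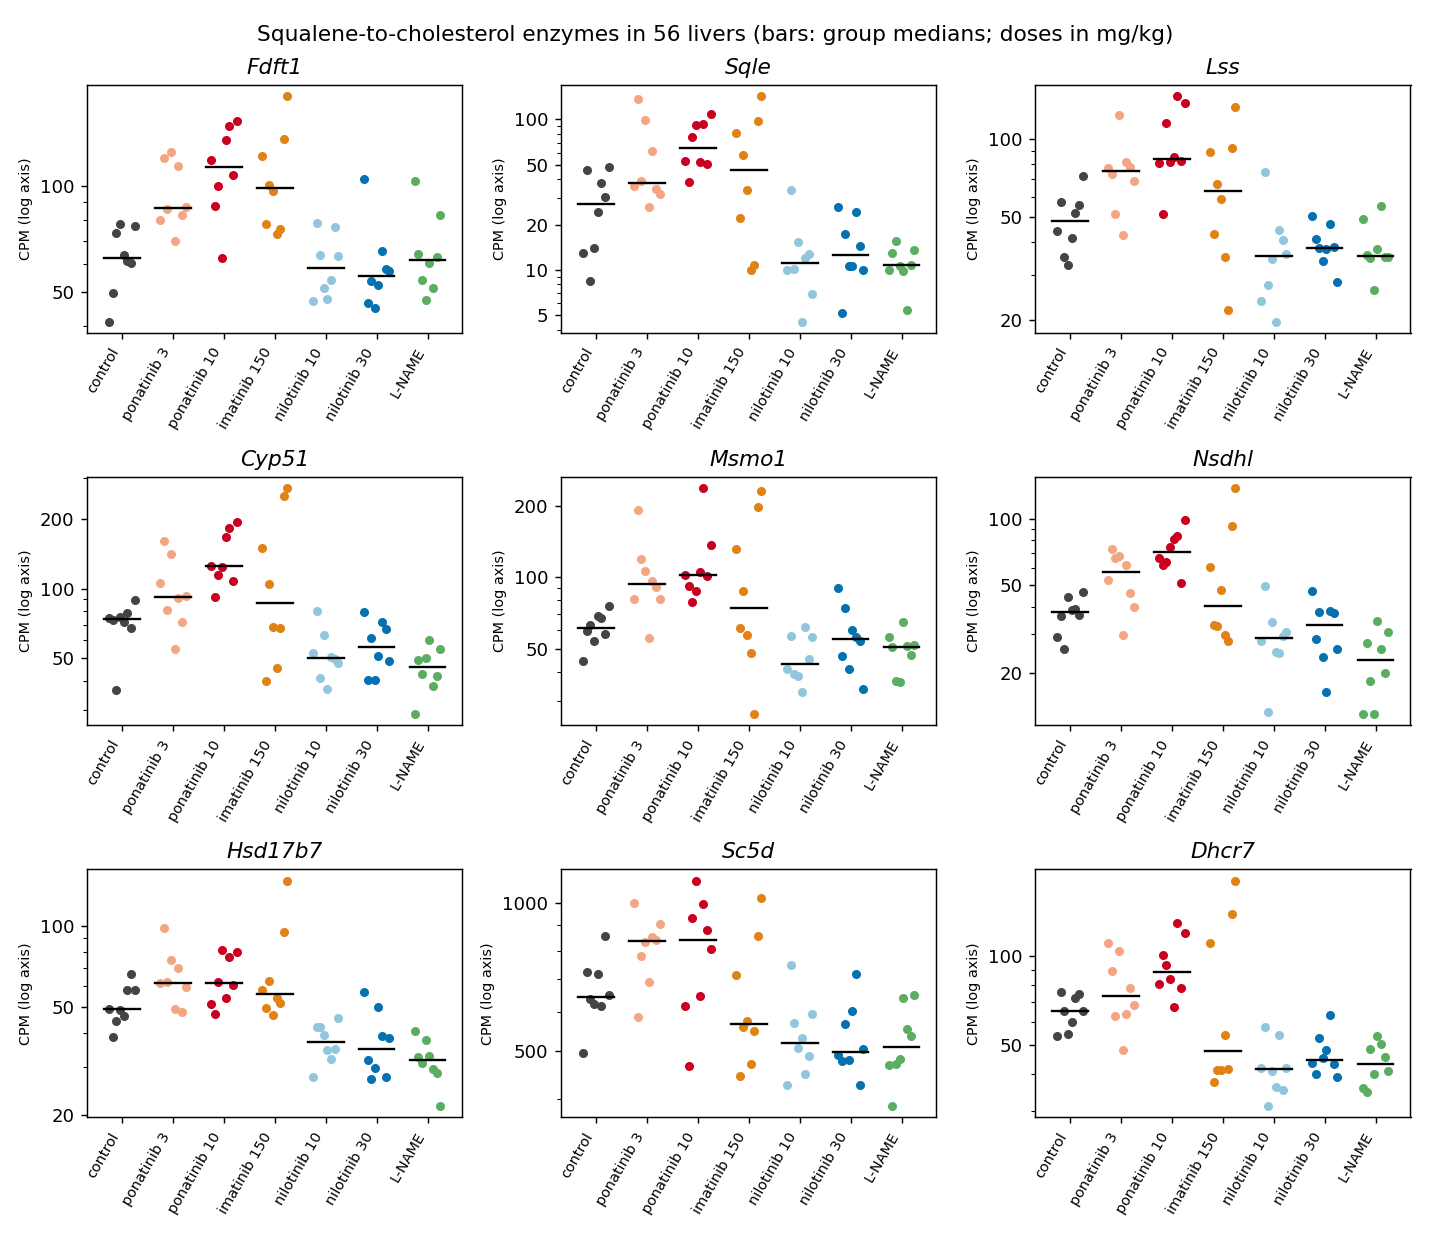
CPM of each of the 9 enzyme genes on a log axis in every mouse, by group, with a bar at the median of the 8 mice. The medians of both ponatinib groups lie above the control median for each gene, those of the nilotinib and L-NAME groups lie below it, and the imatinib mice are widely spread, for Cyp51 from 39.9 to 271 CPM.

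With ponatinib at 10 mg/kg, the higher of its doses, 6 of the 9 genes rose against control, where 7.13% of all genes tested rose and 12.8% changed in either direction. Those 6 were the first enzymes in order, from Fdft1 to Nsdhl, with fold changes between 1.81 and 2.54. The other 3, Hsd17b7, Sc5d and Dhcr7, had positive estimates and did not pass. The median of the 9 log2 fold changes was 0.94, beside -0.01 over all genes.

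Sqle, the epoxidase that is a rate-limiting step of the branch, was at 38.3 CPM in the lowest, 64.6 in the median and 109 in the highest of the 8 ponatinib livers, and only the lowest of them lay within the control range. Its log2 fold change was 1.34 ± 0.43 (SE, adjusted p = 0.0287), and the call was lost when any one of 5 of the 16 mice was left out, namely control replicates 1, 3 and 4 and ponatinib replicates 6 and 8. Cyp51 ran from 91.8 to 195 CPM with a median of 125, against 36.4, 74.1 and 89.2 CPM for the lowest, median and highest control liver. Every treated mouse was above every control mouse, and the log2 fold change was 0.96 ± 0.27 (SE, adjusted p = 0.0118).

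The C4-demethylation genes Msmo1 and Nsdhl separated from control in the same manner. Msmo1 ran from 78.8 to 237 CPM with a median of 102, against 44.4 to 75.6 CPM and a median of 61.1 in control, a log2 fold change of 0.94 ± 0.28 (SE, adjusted p = 0.017) that did not pass without ponatinib replicate 6. Nsdhl ran from 51.2 to 99.0 CPM with a median of 70.6, against 25.7 to 46.3 CPM and a median of 37.6, a log2 fold change of 0.98 ± 0.26 (SE, adjusted p = 0.00747). Together with Cyp51 they were the 3 members whose groups did not overlap, which held upward for 0.454% of all genes tested.

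Lss, which folds squalene epoxide into lanosterol, was at 51.4 CPM in the lowest ponatinib liver, 83.8 in the median and 147 in the highest, against 32.8, 48.2 and 71.9 CPM in control. A single treated mouse reached into the control range, and the log2 fold change was 1.00 ± 0.25 (SE, adjusted p = 0.00532). Fdft1 ran from 62.3 to 153 CPM with a median of 113, against 41.3 to 78.0 CPM and a median of 62.5, with 7 of 8 treated mice above all controls and the smallest adjusted p of the branch (log2 fold change 0.85 ± 0.18 SE, adjusted p = 0.000772).

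Dhcr7 was higher than all controls in 7 of 8 ponatinib mice, at 67.4, 88.6 and 129 CPM for the lowest, median and highest against 53.9, 65.3 and 75.4 CPM, but its log2 fold change of 0.53 ± 0.22 (SE) had an adjusted p of 0.102. Its two-sided exact permutation test on log2 CPM alone gave p = 0.0014. In a fit of only the 16 mice compared the adjusted p of Dhcr7 was 0.0111. Hsd17b7 and Sc5d had smaller estimates, with 95% intervals of the log2 fold change from -0.02 to 0.67 and from -0.01 to 0.56. The exact test, which compares 8 mice with 8 and cannot go below p = 0.000155, was under 0.05 for 8 of the 9 genes, with Sc5d at p = 0.169, and for 27.1% of all genes.

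**Figure D2:**
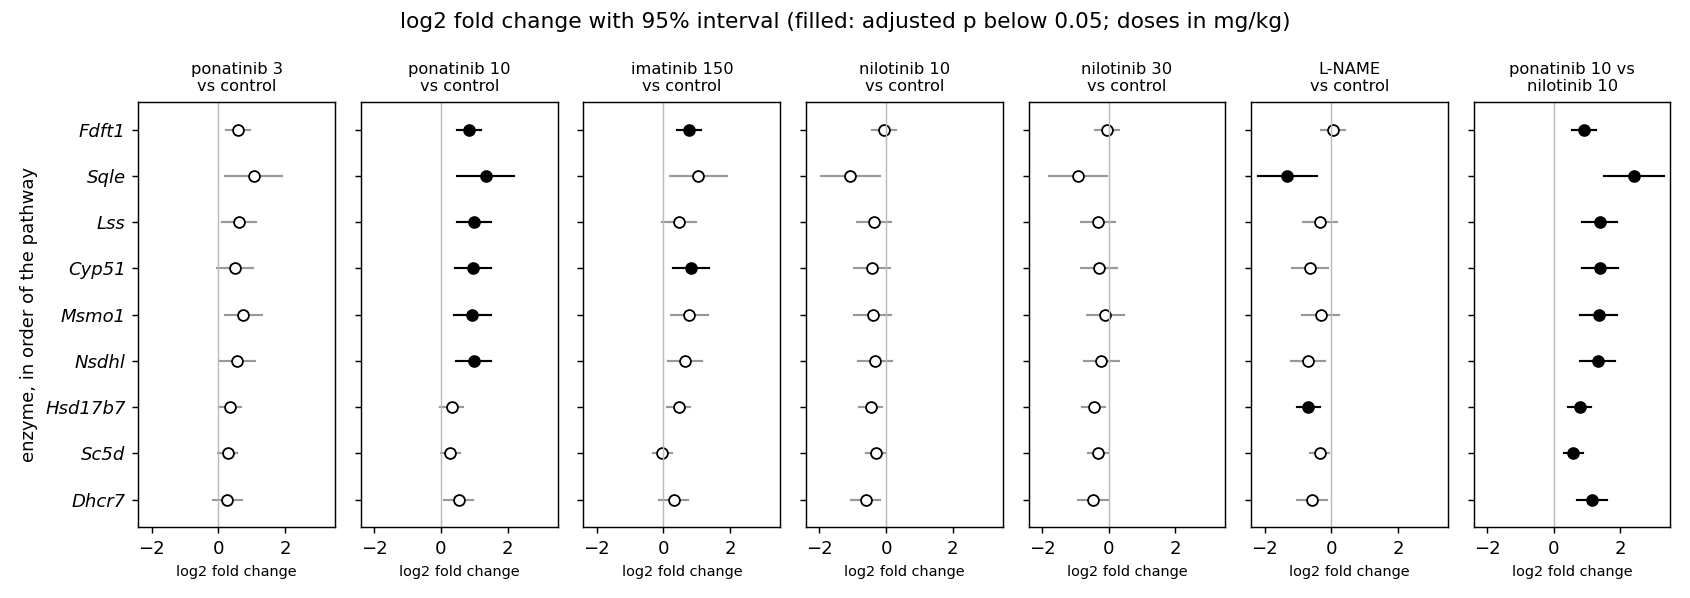
log2 fold change of each enzyme gene with its 95% interval on the horizontal axis, in pathway order from top to bottom, for 7 comparisons; filled points have an adjusted p below 0.05. With ponatinib 10 mg/kg the 6 filled points lie between 0.85 and 1.34, and against nilotinib 10 mg/kg all 9 are filled, between 0.58 and 2.42.

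At 3 mg/kg of ponatinib all 9 estimates were also positive, with a median log2 fold change of 0.57 beside -0.01 over all genes, but none passed the adjustment, which 0.00699% of all genes tested did. In 7 of the 9 the unadjusted p was below 0.05, as in 9.72% of all genes, and Fdft1 and Msmo1 were below 0.01, the cut-off of the study, past which 3.05% of all genes lay. Fdft1 was at 69.6, 86.6 and 125 CPM in the lowest, median and highest mouse, with 7 of 8 above all controls, and Msmo1 at 55.5, 93.8 and 192 CPM, also with 7 of 8 above all controls. Sqle ran from 26.0 to 136 CPM with a median of 37.5, and it overlapped with control in 5 of 8 mice (log2 fold change 1.07 ± 0.43 SE, unadjusted p = 0.0154, adjusted p = 0.359). The exact permutation test was under 0.05 for 7 of the 9 genes and for 14.2% of all genes.

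The ponatinib doses were also compared directly. None of the 9 genes passed between 10 and 3 mg/kg, where 1.38% of all genes did, and the 95% interval of the log2 difference ran from -0.07 to 1.00 for Cyp51 and from -0.11 to 0.89 for Lss, whose estimates of 0.47 and 0.39 were among the larger. For Hsd17b7 and Sc5d the estimates were -0.03 and -0.01. The intervals leave room for a further rise of up to their upper bounds at the higher dose.

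Imatinib gave the widest spread within a group. Fdft1 rose in all 8 mice over the control mean, at 73.3, 98.9 and 180 CPM for the lowest, median and highest mouse, with 6 of 8 above all controls and a log2 fold change of 0.77 ± 0.18 (SE, adjusted p = 0.00303). Cyp51 passed as well (log2 fold change 0.82 ± 0.27 SE, adjusted p = 0.042), yet its 8 livers divided evenly, 4 above all controls and 4 below the control mean. These were the 2 members called of 9, where 5.68% of all genes rose and 10.2% changed. The call of Cyp51 was lost when any one of 10 of the 16 mice was left out, and its exact permutation test gave p = 0.223. Among the 9 that exact test was under 0.05 for Fdft1 alone (p = 0.00202), and it was for 26.7% of all genes.

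The spread ran through most of the branch and was graded from mouse to mouse, while Fdft1 was above the control mean in all 8. In imatinib replicates 1, 7 and 8 all 9 genes were above the control mean, and in replicates 7 and 8 all 9 were above every control mouse. In replicates 2, 5 and 6 only 2 of the 9 were above the control mean. Replicates 4 and 3 lay between, with 4 and 6 of the 9 above it. Sqle was at 142, 97.8 and 80.9 CPM in replicates 8, 7 and 1, but at 9.99 and 10.7 CPM in replicates 5 and 6, near the lowest control mouse. Dhcr7 was at 180, 139 and 111 CPM in the same 3 mice and between 37.8 and 54.3 CPM in the other 5. As the mean over the 9 genes of log2 CPM minus the control mean, the imatinib mice ran from -0.49 to 1.67 with an SD of 0.80, whereas the control mice had an SD of 0.25 and the ponatinib 10 mg/kg mice ran from 0.35 to 1.29. The median over genes of the SD of log2 CPM was 0.84 with imatinib and between 0.28 and 0.45 in the other groups. The mice were not treated as separate groups, and no label distinguishes them.

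**Figure D3:**
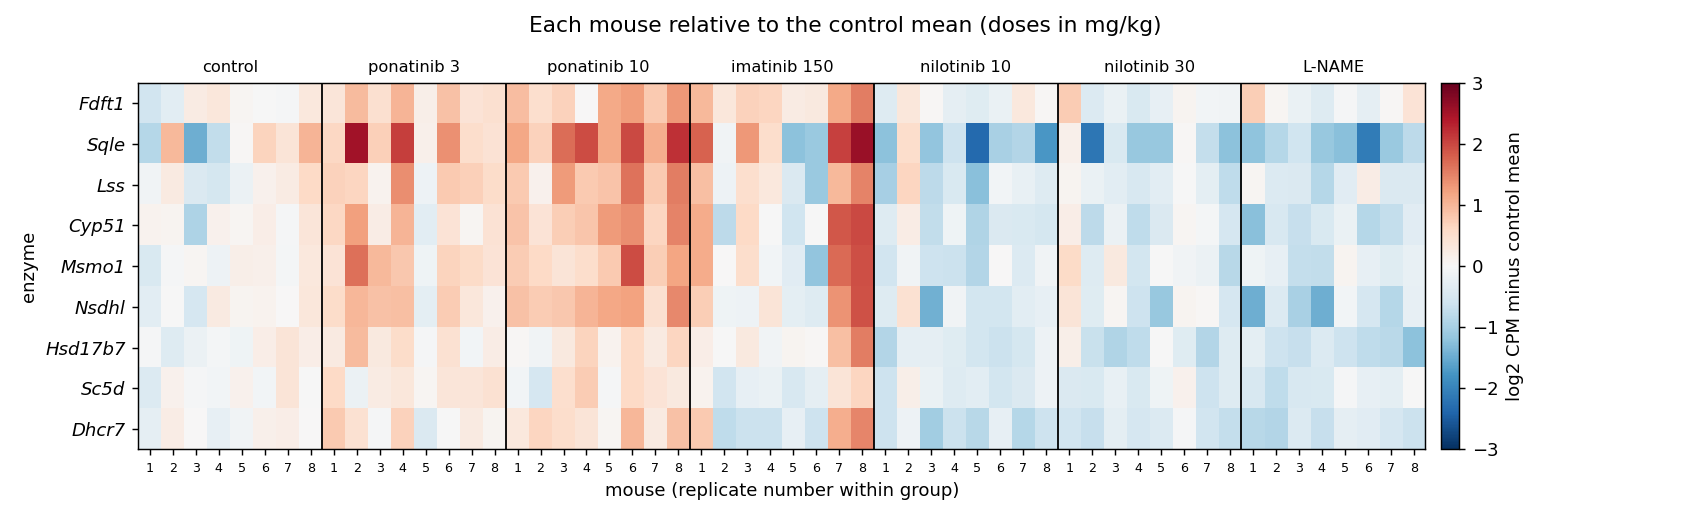
log2 CPM of the 9 enzyme genes in each of the 56 mice minus the control mean of that gene, red for higher and blue for lower, with the mice of each group side by side. Imatinib replicates 1, 7 and 8 are red in all 9 genes, and the other imatinib mice hold both red and blue cells.

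With nilotinib all 9 estimates were below control at both doses, and no gene passed. At 10 mg/kg the median log2 fold change was -0.40 and 1.47% of all genes were called. At 30 mg/kg it was -0.31 and 5.71% of all genes were called. The genes nearest to a call at 10 mg/kg were Dhcr7, at 31.3, 41.6 and 57.9 CPM for the lowest, median and highest mouse with all 8 below the control mean and 6 below every control (log2 fold change -0.62 ± 0.22 SE, unadjusted p = 0.00725, adjusted p = 0.144), and Hsd17b7, at 27.5, 37.3 and 45.5 CPM with all 8 below the control mean (-0.46 ± 0.17 SE, adjusted p = 0.175). Sqle had the lowest estimate, -1.07 ± 0.44 (SE, adjusted p = 0.222), from 4.53 to 33.9 CPM with a median of 11.1, which overlapped with control in 6 of 8 mice.

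At 30 mg/kg Dhcr7 was at 39.1, 44.5 and 63.5 CPM, with 7 of 8 mice below every control mouse and a log2 fold change of -0.47 ± 0.22 (SE, adjusted p = 0.226). Fdft1 had the smallest estimates at both doses, -0.06, with 95% intervals from -0.42 to 0.30. The number of genes with an exact permutation p under 0.05 was 6 of 9 at 10 mg/kg (16.3% of all genes) and 3 of 9 at 30 mg/kg (23.6%), and Dhcr7 had the smallest, p = 0.000777 and p = 0.00124. Between the doses none of the 9 genes passed, and 0% of all genes did, with 179 genes (1.25%) under an unadjusted p of 0.01 and none of the 9 among them. The estimates lay between -0.02 for Sc5d and 0.30 for Msmo1, whose 95% interval ran from -0.26 to 0.85.

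Ponatinib and nilotinib were both given at 10 mg/kg with 1 drug gavage per day, the only dose that any pair of the inhibitors shared. The match is in mg/kg and not in exposure. It was the lower dose of nilotinib, for which the paper reports plasma exposure similar to that of patients, but the higher dose of ponatinib. All 9 genes were higher with ponatinib than with nilotinib, where 0.999% of all genes were higher and 1.94% differed in either direction. The log2 differences ran from 0.58 for Sc5d to 2.42 for Sqle with a median of 1.31, and the adjusted p-values from 0.00284 to 0.0209. The 8 mice of each group did not overlap for Sqle, Cyp51, Msmo1, Nsdhl, Hsd17b7 and Dhcr7, 6 of the 9 genes, which held upward for 0.105% of all genes.

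Sqle stood at 38.3, 64.6 and 109 CPM with ponatinib and at 4.53, 11.1 and 33.9 CPM with nilotinib, a 5.34-fold difference (95% interval 2.86 to 9.97). Dhcr7 stood at 67.4, 88.6 and 129 CPM against 31.3, 41.6 and 57.9 CPM, 2.21-fold (95% interval 1.62 to 3.01). In the main fit this gene passed against control with neither drug. In fits of only the 16 mice compared its adjusted p against control was 0.0111 with ponatinib 10 mg/kg and 0.0122 with nilotinib 10 mg/kg. Sc5d overlapped in 3 of 8 mice, at 467, 842 and 1110.1 CPM against 426, 519 and 748 CPM, 1.49-fold (95% interval 1.23 to 1.82). This call was lost without nilotinib 10 mg/kg replicate 6 and in a fit of only the 16 mice compared (adjusted p = 0.0957), each of which left 8 of 9 genes called. The other 8 calls held whichever mouse was left out.

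At the cut-off of the study, an unadjusted p below 0.01, the number of the 9 genes past it in comparison with control was 6 with ponatinib 10 mg/kg (15% of all genes), 4 with imatinib (12.8%), 1 with nilotinib 10 mg/kg (5.88%), 0 with nilotinib 30 mg/kg (9.33%) and 3 with L-NAME (13.8%).

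The other doses differ and were not compared. Side by side, the medians over the 9 log2 fold changes against control were 0.65 with imatinib 150 mg/kg, 0.57 and 0.94 with ponatinib 3 and 10 mg/kg, and -0.40 and -0.31 with nilotinib 10 and 30 mg/kg.

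With L-NAME, which is no kinase inhibitor, Sqle and Hsd17b7 fell, 2 of the 9 genes, where 6.22% of all genes fell and 11.7% changed in either direction. Of the 9 estimates 8 were below control and 1 above. Their median log2 fold change was -0.57, beside 0.02 over all genes, and so lower than with either dose of nilotinib. Nsdhl (-0.70, adjusted p = 0.0717) and Cyp51 (-0.63, adjusted p = 0.125) were among those that did not pass. Hsd17b7 was at 21.6, 31.9 and 41.0 CPM in the lowest, median and highest mouse against 38.7, 49.1 and 66.3 CPM in control, with 7 of 8 mice below every control and a log2 fold change of -0.68 ± 0.17 (SE, adjusted p = 0.00488). Sqle was at 5.40, 10.7 and 15.5 CPM, all 8 below the control mean but overlapping with the low control mice (-1.32 ± 0.44 SE, adjusted p = 0.0396). Dhcr7 lay wholly below control, at 34.8, 43.4 and 53.8 CPM, which held downward for 1.57% of all genes, but did not pass (-0.57 ± 0.22 SE, adjusted p = 0.0815, two-sided exact permutation p = 0.000155). In a fit of only the 16 mice compared the adjusted p of Dhcr7 was 0.00124.

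Fdft1 did not share the direction, with a log2 fold change of 0.06 and a 95% interval from -0.30 to 0.42. Without L-NAME replicate 2, the mouse of 97473341 counts, Hsd17b7 still passed (-0.69, adjusted p = 0.00804) and Sqle did not (-1.36, adjusted p = 0.0533). The call of Sqle was lost when any one of 11 of the 16 mice was left out, and that of Hsd17b7 with none. With the share of reads outside genes as a term in the fit none of the 9 passed, where 1.77% of all genes did. The log2 fold change was then -0.48 for Hsd17b7 (adjusted p = 0.204) and -1.21 for Sqle (adjusted p = 0.235). By DESeq2 4 of the 9 and 19% of all genes with an adjusted p passed, and by limma 6 of the 9 and 25.8% of all genes.

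The order of the group means was similar among the genes. Ponatinib 10 mg/kg stood highest for Fdft1, Sqle, Lss, Cyp51, Msmo1, Nsdhl and Dhcr7, with ponatinib 3 mg/kg and imatinib next, then control, and the nilotinib and L-NAME groups lowest. For Hsd17b7 imatinib stood highest, at 70.4 ± 34.2 CPM (SD, n = 8), and for Sc5d ponatinib 3 mg/kg, at 811 ± 128 CPM. L-NAME stood lowest for Sqle, Cyp51, Nsdhl, Hsd17b7 and Sc5d and nilotinib 10 mg/kg for Fdft1, Lss, Msmo1 and Dhcr7. For Fdft1 L-NAME came before control. Neighbours in this order mostly did not differ beyond their spread: the gap between adjacent group means was below the larger of their SDs for all 6 pairs of neighbours of Sqle, Lss, Cyp51 and Sc5d, and for 5 of 6 pairs of the other genes. The exceptions were ponatinib 3 mg/kg over L-NAME for Fdft1, ponatinib 3 mg/kg over control for Msmo1 and Nsdhl, and control over nilotinib 30 mg/kg for Hsd17b7 and Dhcr7.

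Some other cell types and library measures moved with the same groups. With ponatinib 10 mg/kg the summed level of 7 stellate cell markers ran from 136 to 536 CPM against 327 to 1036.0 CPM in control, with 2 of 7 lower (Col1a1 and Col3a1) and none higher. With imatinib it ran from 276 to 423 CPM, with the same 2 of 7 lower, and that of 7 Kupffer cell and macrophage markers from 413 to 869 CPM against 736 to 1381 CPM, with 2 of 7 lower (Adgre1 and Cd5l). No marker of these lists was at 0 in all mice of a group. The 6 hepatocyte markers summed to between 66584 and 145720 CPM with ponatinib 10 mg/kg and to between 75489 and 141530 CPM in control, with Apoa1, Ttr and Serpina1c higher and Cps1 lower. The same 4 passed in the same directions with L-NAME, Apoa1, Ttr and Cps1 did with imatinib, and Cps1 with nilotinib 30 mg/kg. Clec4f, a Kupffer cell marker, was higher with ponatinib 10 mg/kg (log2 fold change 0.61), nilotinib 30 mg/kg (0.64) and L-NAME (0.69), and Cd68 lower with ponatinib 10 mg/kg (-0.81). Between ponatinib and nilotinib at 10 mg/kg, Col1a1 (log2 difference -2.13) and Lrat (-0.71), 2 of the 7 stellate cell markers, Cd68 (-0.99), 1 of the 7 of Kupffer cells and macrophages, and Stab2 (-0.63), 1 of 6 endothelial markers, were lower with ponatinib and none of the marker lists had a member higher. The endothelial markers summed to between 79.5 and 214 CPM with ponatinib and to between 203 and 292 CPM with nilotinib, with a median log2 difference of -0.84. The part of these cell types in the results was not tested. The share of reads outside genes was 10.0% ± 1.82 (SD, n = 8) with imatinib, also above the control mean, and with the share as a term in the fit 4 of 9 genes passed with ponatinib 10 mg/kg (2.45% of all genes), with a larger estimate than before for 8 of the 9, and 3 of 9 with imatinib (4.51%). Sqle (log2 fold change 1.44, adjusted p = 0.106) and Lss (0.98, adjusted p = 0.0665) were the calls lost with ponatinib. In every nilotinib mouse the share was above the highest control, 8.67%, from 9.14% at 10 mg/kg and 9.41% at 30 mg/kg. With the share in the fit, the nilotinib estimates were smaller in size for every gene but Lss. Dhcr7 at 30 mg/kg was then -0.27 in place of -0.47. The part of this share in the nilotinib estimates was not tested.

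Within groups no relation of this share with the enzymes was detected. Over the 56 mice, with values centred on their group means, Pearson's r of the share with a gene ran from -0.23 for Dhcr7 to 0.05 for Lss and Spearman's rho from -0.23 to 0.21 (9 relations, permutation within groups, adjusted p at least 0.616). Leaving out the 2 mice whose share was most extreme, r ran from -0.32 to 0.09.

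The 9 genes themselves moved together from mouse to mouse. With group means removed, all 36 pairs had a positive Pearson's r, from 0.29 to 0.81 with a median of 0.58, and Spearman's rho ran from 0.28 to 0.78. In 34 of the 36 pairs both were below 0.05 by permutation within groups and Benjamini-Hochberg adjustment over the 36 (100000 permutations, smallest possible p = 1e-05), and the largest adjusted p was 0.0613. Without the 2 mice farthest from the median of the gene on the x axis, r ran from 0.23 to 0.76. With the mean of the other 8 genes, Cyp51 had the highest r, 0.86, and Sc5d the lowest, 0.54. The genes of a mouse share its library and its scaling factor. Pairs of other genes were not examined as a background, so the count of pairs only describes these 9 genes.

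The relation was closest in the imatinib mice, where the median r over the 36 pairs was 0.89, beside 0.37 in control, 0.72 and 0.57 with ponatinib 3 and 10 mg/kg, 0.51 and 0.49 with nilotinib 10 and 30 mg/kg, and 0.05 with L-NAME (n = 8 mice each, given as a description). Over the 48 mice without imatinib the median was 0.43, and all 36 pairs were still positive.

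Among the genes outside the 9 whose group-centred log2 CPM followed the mean of the 9 most closely over the 56 mice were Acat2 (r = 0.83), Gm3571 (0.81), Hmgcs1 (0.77), Rdh11 (0.75), Pmvk and Tm7sf2 (both 0.72), Acss2 (0.70), Gm5873 (0.68) and Fdps (0.67). Acat2, Hmgcs1, Pmvk and Fdps encode enzymes of the early part of the pathway, and Tm7sf2 a sterol C14-reductase. Gm3571 and Gm5873 are processed pseudogenes 98.9% and 96.7% identical to Fdps over 1062 and 1066 bases, so reads of Fdps can be split among them. Acat2 is 97.7% identical to Acat3 over 1477 bases. They were picked as the highest of all genes, so these values carry no test.

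The rest of the pathway was followed through lists of its early and remaining sterol enzymes. Of 8 early enzymes, 5 rose with ponatinib 10 mg/kg: Acat2 (log2 fold change 0.87), Hmgcs1 (0.72), Pmvk (0.97), Mvd (1.61) and Fdps (1.46), the synthase of farnesyl diphosphate itself. Mvd, the last step before isopentenyl diphosphate, was at 54.6 ± 29.1 CPM (SD, n = 8) against 17.8 ± 6.75 CPM in control (adjusted p = 0.00264). With imatinib Acat2 and Mvd rose, 2 of 8 (adjusted p = 0.0469 and 0.0487). No early enzyme passed with nilotinib, ponatinib 3 mg/kg or L-NAME. Against nilotinib 10 mg/kg the same 5 early enzymes were higher with ponatinib 10 mg/kg, from 1.08 for Acat2 to 1.79 for Mvd on the log2 scale.

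Of 4 further sterol genes, Tm7sf2 (0.90), Ebp (0.46), a sterol isomerase, and Erg28 (0.64) rose with ponatinib 10 mg/kg and Lbr did not pass. With imatinib only Tm7sf2 passed (0.69, adjusted p = 0.0424).

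**Figure D4:**
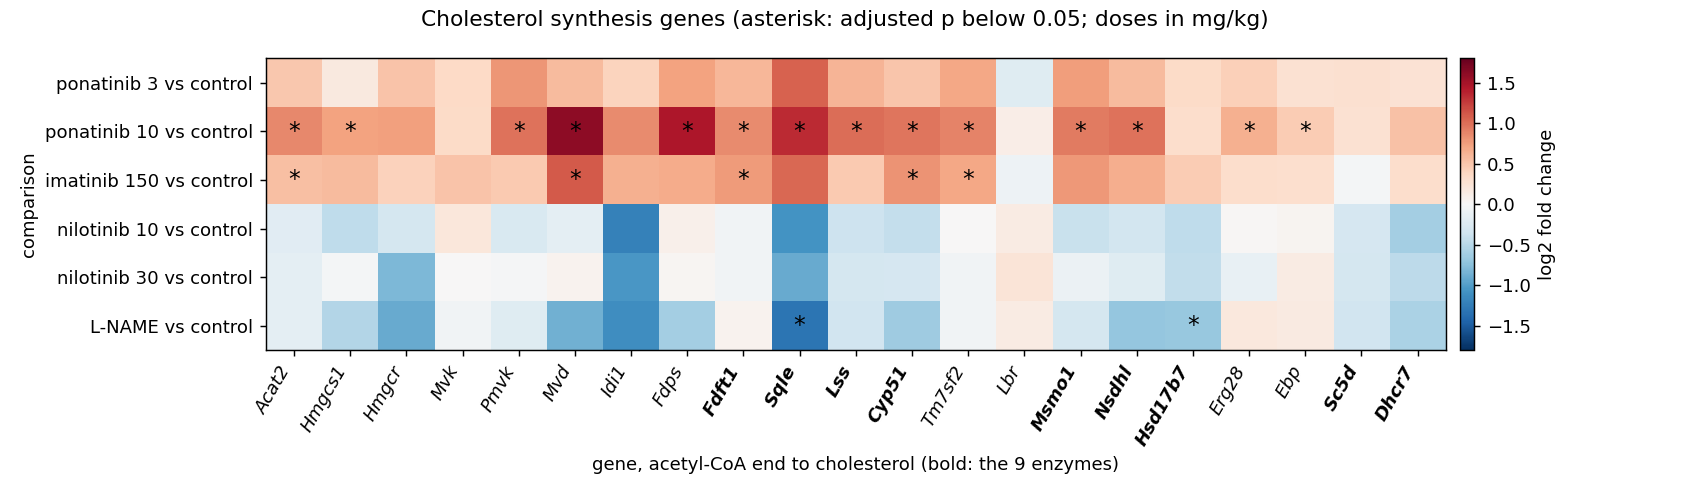
log2 fold change of genes of cholesterol synthesis in 6 comparisons with control, ordered from the acetyl-CoA end on the left to cholesterol on the right, with an asterisk at an adjusted p below 0.05 and the 9 enzymes of the branch in bold. The row of ponatinib 10 mg/kg is red for the genes plotted, and Sqle reaches 1.34 there and -1.32 in the L-NAME row.

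Regulators and targets of SREBP2 formed a list of 8 genes. With ponatinib 10 mg/kg Insig1, the sterol-responsive retention factor of SREBP in the endoplasmic reticulum, rose (0.69, adjusted p = 0.0334) and the protease gene Mbtps1 fell (-0.33, adjusted p = 0.0439). Srebf2, which encodes SREBP2, fell with nilotinib 10 mg/kg (-0.68, adjusted p = 0.0103), nilotinib 30 mg/kg (-0.49, adjusted p = 0.0367) and L-NAME (-0.62, adjusted p = 0.0034). Scap, the sterol sensor that escorts SREBP, fell with nilotinib 30 mg/kg (-0.43, adjusted p = 0.0454) and Mbtps1 with L-NAME (-0.41, adjusted p = 0.0108). None of the 8 passed with imatinib or ponatinib 3 mg/kg. Between ponatinib and nilotinib at 10 mg/kg, Insig1 (1.10) and Srebf2 (0.53) were higher with ponatinib.

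Lists of lipid synthesis and of cholesterol disposal changed in both directions. Of 11 genes of SREBP1c lipogenesis, Scd1, the stearoyl-CoA desaturase, was lower in every group but ponatinib 3 mg/kg, by -0.67 with ponatinib 10 mg/kg and by -0.99 with L-NAME on the log2 scale, while Acaca (0.66) and Pnpla3 (1.95) rose with ponatinib 10 mg/kg and Srebf1 fell with imatinib (-0.57). With nilotinib 30 mg/kg Gpam also fell (-1.25). With L-NAME 6 of the 11 fell, among them Gpam (-1.72), Acly (-1.71), Fasn (-1.42) and Elovl6 (-1.38). Of 12 genes of bile acid synthesis, sterol export and esterification, Abcg8 (-0.66) and Abca1 (-0.43), which export sterols, fell and the acyltransferase Soat2 rose (0.42) with ponatinib 10 mg/kg. With imatinib Abca1 (-0.48) and Soat1 (-1.16) fell and Cyp27a1 rose (0.39), and with L-NAME Cyp8b1 fell (-0.92) and Soat2 rose (0.53). In the direct comparisons, Abcg8 was lower with ponatinib 10 than 3 mg/kg (-0.57, adjusted p = 0.0397), and Fasn (1.46) and Pnpla3 (2.04) were higher and Soat1 lower (-0.79) with ponatinib than with nilotinib at 10 mg/kg. No gene of either list passed with ponatinib 3 mg/kg.

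Because the 9 genes moved together, their promoters were searched for 3 short motifs of cholesterol genes on both strands: the sterol regulatory element TCACNCCAC, to which SREBP2 binds, the CCAAT box of NF-Y and the GC box GGGCGG of SP1. RefSeq windows on GRCm38.p6, from 250 bases before to 50 after the start, were at hand for 7 of the 9 genes, in 9 windows of which Dhcr7 has 3. Fdft1 and Sqle have no window. Each of the 7 genes held a CCAAT box in at least 1 window and each a GC box. Counted by window, 7 of the 9 held a CCAAT box and 8 of the 9 a GC box, which 37.4% and 35.7% of all 32851 windows hold. Nsdhl held 4 CCAAT boxes and Msmo1 and Hsd17b7 3 each. TCACNCCAC, held by 1.24% of all windows, was in none of the 9. With the looser TCACNCNAC, held by 2.7%, Nsdhl had 1 match. Sterol elements that differ from these letters or lie outside the windows were not looked for. The windows of Cyp51, Msmo1 and Lss are printed because, with Sqle, these genes had the largest summed changes over the inhibitor groups. Capitals mark the CCAAT and GC boxes on either strand, with no overlap between the motifs. The windows are, in that order, chr5:4104648-4104947 on the minus strand, chr8:64733529-64733828 on the minus strand and chr10:76531355-76531654 on the plus strand.
Cyp51: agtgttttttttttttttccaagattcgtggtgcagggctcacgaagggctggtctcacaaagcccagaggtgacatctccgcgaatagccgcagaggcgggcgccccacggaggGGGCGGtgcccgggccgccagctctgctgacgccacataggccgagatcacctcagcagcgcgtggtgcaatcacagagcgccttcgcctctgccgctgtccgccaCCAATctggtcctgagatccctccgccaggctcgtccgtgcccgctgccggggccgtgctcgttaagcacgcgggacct
Msmo1: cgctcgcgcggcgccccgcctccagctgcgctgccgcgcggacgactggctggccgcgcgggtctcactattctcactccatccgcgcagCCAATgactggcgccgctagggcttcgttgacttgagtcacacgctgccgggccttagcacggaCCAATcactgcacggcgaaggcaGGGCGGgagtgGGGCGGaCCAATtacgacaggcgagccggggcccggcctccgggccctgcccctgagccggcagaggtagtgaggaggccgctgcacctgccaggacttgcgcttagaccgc
Lss: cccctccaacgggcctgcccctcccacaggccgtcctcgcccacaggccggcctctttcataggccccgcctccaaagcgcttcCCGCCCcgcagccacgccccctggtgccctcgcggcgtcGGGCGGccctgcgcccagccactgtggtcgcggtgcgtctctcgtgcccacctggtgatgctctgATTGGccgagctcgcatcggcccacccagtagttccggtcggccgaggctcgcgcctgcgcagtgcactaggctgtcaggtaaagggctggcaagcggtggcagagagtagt
In Cyp51 a single CCAAT box lies close to the start site, in Lss a single one on the opposite strand, and in Msmo1 all 3 are on the strand of the gene. Whether any of these letters is bound in these livers was not measured.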

How the data were processed

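Poly(A) RNA of 56 livers was sequenced. Per the labels and the submitters' processing notes, the authors aligned reads to GRCm38 with TopHat2 2.0.14 and Bowtie2 2.1.0, used SAMtools 0.1.18, and deposited whole read counts per Ensembl gene from HTSeq 0.6.1p1, without normalization; reads aligned to several places were counted on no gene. Symbols came from GENCODE vM21 (97.96% of 45513 identifiers matched). Groups were taken from the treatment labels. The main fit was edgeR 4.0.16 (filterByExpr, TMM, robust quasi-likelihood F test, all 56 mice, no covariate, Benjamini-Hochberg over 14314 genes), checked on simulated data. Standard errors and 95% intervals derive from that F test. CPM and log2 CPM (prior count 2) were computed from the counts, and two-sided exact permutation tests compared 8 mice with 8, for the members and, as background, for all genes tested. Alternatives used DESeq2 1.42.0, limma 3.58.1, other filters, mice and thresholds. Transcripts were compared with blastn 2.17.0+. The members and gene lists were chosen with earlier results of these data known. Besides all 9 members, the text names up to 4 called genes of each list per comparison, those with the largest change, the called markers, and the genes most like the members' mean. A few genes of these lists are not reported here. Per-mouse depth ran from 5342379 to 97473341 counts. The lowest count of a member was 36, for Sqle in nilotinib 10 mg/kg replicate 5, a library of 7436898 counts.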

Additional observations from a re-analysis of the deposited data

Results flagged for a closer look

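Of the 63 combinations of gene and group, 3 had a mouse far from the other 7, its gap to the nearest mouse on the log2 CPM scale being above Dixon's 95% critical value as a share of the group's log2 CPM range; chance alone gives about 1 in 20 such cases. With nilotinib 30 mg/kg, Fdft1 was at 104 CPM in replicate 1, the next mouse being at 65.5 CPM, a gap of 0.557 of the range in log2 CPM. With L-NAME, Sqle was at 5.40 CPM in replicate 6, below the next mouse at 9.84 CPM, a gap of 0.567 in log2 CPM. In control, Cyp51 was at 36.4 CPM in replicate 3, below the next mouse at 67.6 CPM, a gap of 0.691 in log2 CPM.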

How the results depend on the processing

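The count of 6 members called with ponatinib 10 mg/kg lay between 4 and 7 under the other normalization, filter, covariate, mice and tools, and 3 passed an adjusted p below 0.01. The count of 9 between ponatinib and nilotinib at 10 mg/kg lay between 8 and 9 when single mice were left out, was 8 in only the 16 mice compared, and 7 passed an adjusted p below 0.01. With imatinib 1 member passed with no low-count filter, in the 48 mice without L-NAME, in only the 16 mice compared, by limma voom with sample weights and at an adjusted p below 0.01, 3 by DESeq2 and with the share of reads outside genes as covariate, and 4 at an unadjusted p below 0.01. With nilotinib 10 mg/kg 1 passed in only the 16 mice and at an unadjusted p below 0.01, and 2 by limma; with nilotinib 30 mg/kg 1 passed in only the 16 mice and 2 by limma; with ponatinib 3 mg/kg 1 passed by limma and 2 at an unadjusted p below 0.01. With L-NAME 1 passed with no low-count filter, without replicate 2 (chosen after seeing the data) and at an adjusted p below 0.01, 0 with the share of reads outside genes as covariate, 5 in only the 16 mice, 6 by limma and 4 by DESeq2. Leaving out 1 mouse in turn gave 1 to 4 members with imatinib, 0 to 1 with nilotinib 30 mg/kg, 4 to 6 with ponatinib 10 mg/kg (4 without replicate 6) and 1 to 2 with L-NAME. The share of all genes passing was not set beside every count in this paragraph, and it changes with the tool. With L-NAME it was 25.8% by limma and 11.7% in the main fit. A count without its share only describes the setting. The looser sterol element gave 1 member in place of 0. RLE in place of TMM gave 33 in place of 34 member pairs.

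Estimates near 0 changed sign, none of them called. On the log2 scale, with the share of reads outside genes as covariate Sc5d with imatinib was 0.00098, Msmo1 with nilotinib 30 mg/kg 0.063, and between the ponatinib doses Hsd17b7 was 0.13 and Sc5d 0.042. By limma Dhcr7 with imatinib was -0.090, Fdft1 with L-NAME -0.0073, Hsd17b7 between the ponatinib doses 0.013, and between the nilotinib doses Fdft1 was -0.17, Nsdhl -0.037, Hsd17b7 -0.10 and Sc5d 0.018. Sc5d between the ponatinib doses was 0.0042 by RLE, 0.0059 in only the 16 mice and 0.0042 by DESeq2. Fdft1 between the nilotinib doses was -0.0076 by RLE, -0.0034 in only the 16 mice, -0.0075 by DESeq2 and -0.0027 without L-NAME replicate 2, and Hsd17b7 was -0.0012 by RLE and -0.0010 by DESeq2. The cause was not tested. No paired analysis was possible because the labels number the 56 mice in one running series, and the replicate numbers 1 to 8 used here only name the mice within a group.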
